A study of Mus musculus with 6 samples.

Results

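The genes described here are 6 genes of salt transport in the thick ascending limb (TAL) of the kidney tubule: Slc12a1, Kcnj1, Bsnd, Cldn16, Cldn19 and Casr. They were taken by exact gene name from the mouse gene annotation that was deposited with an RNA sequencing experiment, and they are 6 of its 38334 gene names. Of these names, 22923 had a coding transcript and 10537 had at least 2. The 6 genes held 284 rows, of which 137 were exon rows and 121 were coding rows. Those rows described 15 of the 93481 transcripts in the file, and 13 of the 15 were coding. The file holds positions on mm10 and no expression values, so what follows describes the gene models against which the reads were counted and makes no comparison between cells.

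The cells studied were mTAL cells, a mouse epithelial line made immortal, and they carried human uromodulin fused to GFP, either the wild type or the C150S isoform. There were 3 libraries of wild type and 3 libraries of C150S cells, all from passage 3, and both groups were mixed populations transduced with a lentiviral vector in which the spleen focus-forming virus promoter drives the transgene. The line was microdissected from TAL segments of the immortomouse, and the study states that TAL markers, the Slc12a1 product NKCC2 among them, were not seen after immortalisation. Expression in these libraries was not analysed here, which leaves out their depth and any check of the labelled cell type against markers.

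In the TAL, sodium, potassium and chloride enter the cell from the tubule through the cotransporter NKCC2, and potassium returns to the tubule through the channel ROMK, the product of Kcnj1. Chloride leaves on the blood side through channels that need the subunit barttin, the product of Bsnd, while calcium and magnesium pass between the cells through pores that claudin-16 and claudin-19 form. The calcium-sensing receptor, coded by Casr, lies on the blood side and lowers this transport when calcium is high. Inherited loss of each of these genes is known from human salt-wasting, magnesium-wasting or calcium disorders.

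The transcript models differed in kind from gene to gene. Slc12a1 had 1 set of mutually exclusive coding exons, Kcnj1 had separate first exons with separate start codons, Cldn19 had alternative coding ends, and Casr had a skipped coding exon and several noncoding first exons. The transcripts of Cldn16 differed outside the coding sequence only, and Bsnd had a single transcript. All 13 coding transcripts carried a start codon row and a stop codon row. The coding length was divisible by 3 in 13 of 13, and in 87.0% of the 51653 coding transcripts in the file. Read from the GENCODE release M21 transcripts on GRCm38, the same assembly, 13 of 13 coding sequences began with ATG, 13 of 13 ended in a stop codon, and 0 stop codons lay inside them. The 13 transcripts held 11 distinct coding sequences.

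**Figure D1:**
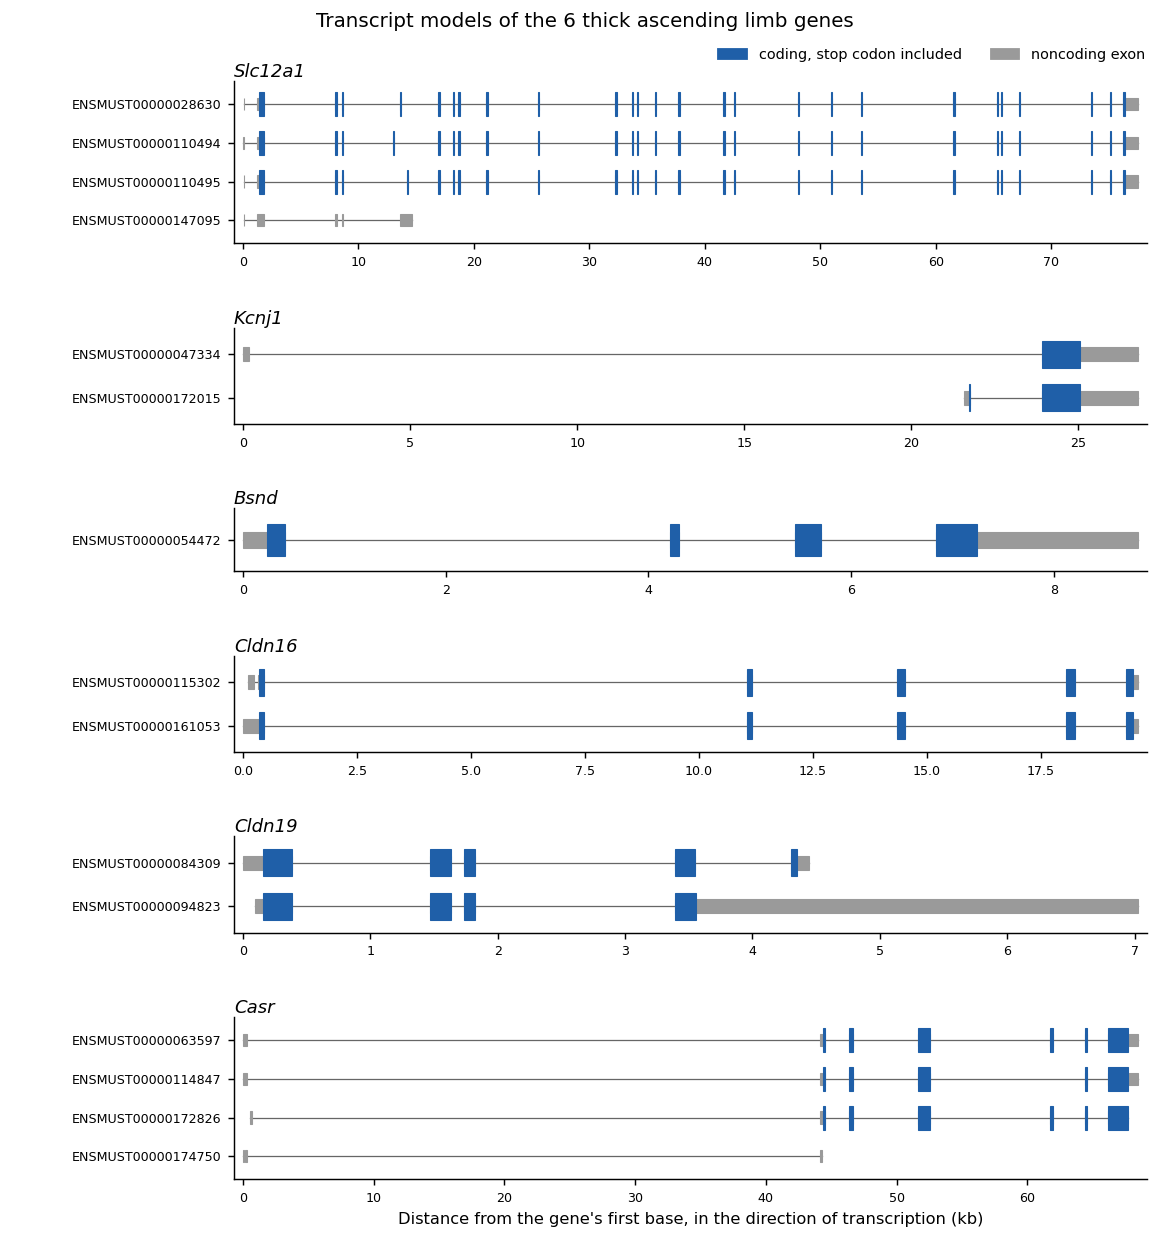
Transcript models of the 6 genes, with distance from the gene's first base in the direction of transcription on the horizontal axis (kb, a separate scale for each gene) and 1 line per transcript. Blue blocks are coding and grey blocks are noncoding. The 15 transcripts show the exon swap of Slc12a1, the first exons of Kcnj1, the long last exon of Cldn19 and the skipped exon of Casr.

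Slc12a1 (ENSMUSG00000027202) codes for NKCC2, the apical cotransporter. On chromosome 2, plus strand, it runs from 125152505 to 125230002 and spans 77498 bases, of which 5763 (7.44%) were exonic. Its 3 coding transcripts each had 27 exons, 26 of them with coding bases, and each had a coding length of 3273 bases, or 1090 residues. They differed in exon 5. Between an upstream exon that ends at 125161151 and a downstream exon that begins at 125169413, ENSMUST00000110494 used the first of 3 exons in genomic order, ENSMUST00000028630 the second and ENSMUST00000110495 the third. Each of these exons was 96 bases long, a length divisible by 3. Variants of NKCC2 named B, A and F after exons in this genomic order are known to differ in chloride affinity and in where along the TAL they are made, and the exchanged exon codes for a membrane-spanning segment and the loop beside it.

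The 3 exons are printed because they carry the difference between the proteins. They are in coding direction, on the plus strand of GRCm38, and capitals mark bases that are not the same in all 3. The first is at chr2:125165495-125165590, the second at chr2:125166123-125166218 and the third at chr2:125166673-125166768.
Slc12a1, the first exon of the set: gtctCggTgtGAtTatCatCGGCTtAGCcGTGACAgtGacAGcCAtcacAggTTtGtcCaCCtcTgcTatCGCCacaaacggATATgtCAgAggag
Slc12a1, the second exon of the set: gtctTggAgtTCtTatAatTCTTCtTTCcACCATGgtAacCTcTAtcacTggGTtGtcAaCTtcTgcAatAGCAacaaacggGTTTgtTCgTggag
Slc12a1, the third exon of the set: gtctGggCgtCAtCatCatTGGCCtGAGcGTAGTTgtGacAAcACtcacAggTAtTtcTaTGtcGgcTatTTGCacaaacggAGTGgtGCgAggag

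Of the 96 positions, 51 (53.1%) were the same in all 3 exons and 45 were not, with 13 positions at which all 3 exons differed from each other. The first and the second exon had 63 identical bases (65.6%), the first and the third 66 (68.8%) and the second and the third 56 (58.3%). The exons shared their first 4 and last 4 bases, and the longest run common to all 3 was 8 bases. Each exon finished a codon begun in the upstream exon with 2 bases, went on with 31 full codons, codons 202 to 232 of the coding sequence, and ended on the opening base of the next codon. Of the 31 codons, 20 coded for the same residue in all 3 exons.

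Between the first and the second exon 24 of 31 residues were identical (77.4%), although 6 codons only were identical in their letters and 18 further codons were synonymous. Between the first and the third exon, 23 residues were identical (74.2%), 11 of them with the same codon. The second and the third exon differed most, with 21 identical residues (67.7%) and 4 identical codons. The differing bases fell mostly on the last position of a codon, 22 of 33 between the first and the second exon, 16 of 30 between the first and the third and 25 of 40 between the second and the third. The GC content was 52.1% in the first exon, 42.7% in the second and 51.0% in the third.

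The 3 exons stood close together, 532 and 454 bases apart, in an interval where the first lay 4343 bases after the upstream exon and the third 2644 bases before the downstream one. The remaining transcript, ENSMUST00000147095, was noncoding and had 5 exons with 1876 bases. Its last exon began with the second exon of the set at 125166123 and ran for 1023 bases to 125167145, through the 454 bases that follow and the whole of the third exon, and ended 377 bases past it. Since that stretch is in a transcript, its letters could be read: the 2 bases after the second exon were GT, the 2 bases before the third were AG, and the 2 bases after the third were GT, the usual letters at splice sites.

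**Figure D2:**
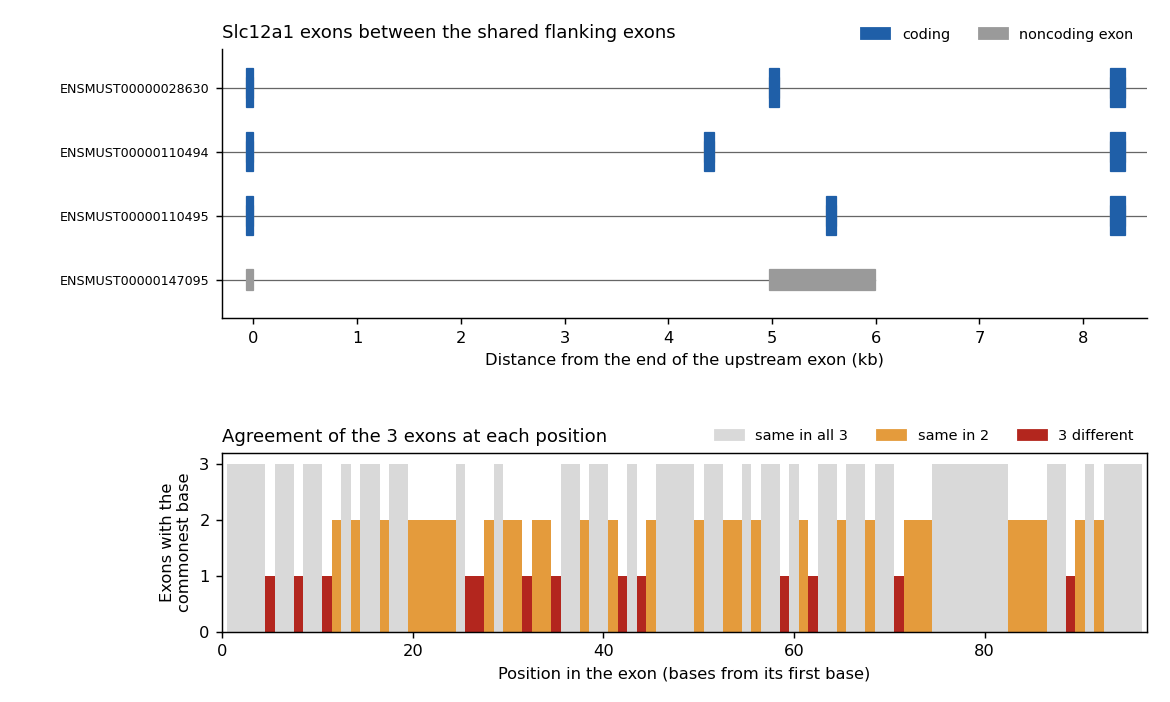
Upper panel: the 4 Slc12a1 transcripts around the exchanged exon, with distance from the end of the upstream exon on the horizontal axis (kb). Lower panel: for each of the 96 positions of the exon, how many of the 3 exons carry the commonest base. The 3 coding transcripts each use 1 exon of the set, and 51 positions reach the full height of 3.

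Sets of mutually exclusive coding exons lie between the same upstream and downstream splice sites. An exon entered a set when at least 1 other exon of it did not overlap it and was never in a transcript with it. Sets of 3 or more can therefore hold exons that overlap or that a transcript joins, which the 3 exons of Slc12a1 do not. Sets were found in 2.53% of the 10537 gene names with at least 2 coding transcripts. Among the members, 1 of the 5 with at least 2 coding transcripts had such a set. The file held 283 sets in 267 gene names, and 252 of them (89.0%) had 2 exons. All exons of a set were of equal length in 88 sets (31.1%), and all were divisible by 3 in 104 (36.7%). Of the 31 sets with 3 or more exons, 1 had exons that were all of equal length, and it was the set of Slc12a1. It was also the 1 such set among 63 when noncoding exons were allowed and among 42 in GENCODE release M21.

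The 4 transcripts of Slc12a1 shared the splice donor of their first exon at 125152633. Their 3 start positions lay within 95 bases, which made first exons of 34, 54 and 129 bases, all noncoding. The first exon was thus a single group, where a group is the set of transcripts that share the 3′ end of their first exon. In the deposited annotation, 43.6% of coding gene names had at least 2 groups. Of the members, 3 of 6 did, namely Kcnj1, Cldn16 and Casr.

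Kcnj1 (ENSMUSG00000041248) codes for ROMK, the potassium channel that returns potassium to the tubule. On chromosome 9, plus strand, it runs from 32372418 to 32399192, a span of 26775 bases with 3266 bases of exon. It had 2 transcripts of 2 exons, which met in the same last exon from 32396321 to 32399192 (2872 bases). ENSMUST00000047334 began at 32372418 with a noncoding exon of 196 bases and an intron of 23707 bases. ENSMUST00000172015 began 21567 bases further downstream with an exon of 198 bases, followed by an intron of 2138 bases. Isoforms of ROMK that differ at the amino end are known in the kidney.

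The 2 transcripts of Kcnj1 also differed in the start codon. In ENSMUST00000172015 translation begins in the first exon, at 32394144, and the coding length was 1179 bases (392 residues). In ENSMUST00000047334 it begins at 32396342, in the shared exon, and the coding length was 1119 bases (372 residues). The longer form adds 39 coding bases from its first exon and 21 from the shared exon, together 60 bases or 20 codons, so both forms are read in the same frame and the shorter is 94.9% of the longer. The stretch is printed because it is the whole difference between the coding sequences. It runs in coding direction on the plus strand of GRCm38, at chr9:32394144-32396344 with the intron removed, and capitals mark both start codons.
Kcnj1 from the upstream to the downstream start codon: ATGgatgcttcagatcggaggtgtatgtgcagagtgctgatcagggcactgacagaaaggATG

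Bsnd (ENSMUSG00000025418) codes for barttin, the subunit that chloride channels of the TAL need to reach the membrane and to open. On chromosome 4, minus strand, it runs from 106483456 to 106492283. Its only transcript, ENSMUST00000054472, had 4 exons with 2756 bases, all with coding bases. The coding length was 924 bases (307 residues), with 242 bases ahead of it and 1590 after it. It thus had no alternative first exon and no alternative coding exon, and 36.1% of coding gene names had a shorter longest coding sequence.

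Cldn16 (ENSMUSG00000038148) and Cldn19 (ENSMUSG00000066058) code for the claudins of the paracellular pore, and their models differed at opposite ends. Cldn16 runs from 26463135 to 26482765 on chromosome 16, plus strand. Both of its transcripts had the same coding sequence of 708 bases (235 residues) in 5 coding exons. ENSMUST00000161053 began with an exon of 465 bases. ENSMUST00000115302 began 121 bases further downstream, and an intron of 100 bases from 26463373 to 26463472 was removed ahead of its start codon. That intron began with GT and ended with AG. The difference left 351 bases ahead of the start codon in the former and 130 in the latter.

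Cldn19 runs from 119255414 to 119262438 on chromosome 4, plus strand. Both of its transcripts used the same first splice donor and the same 626 coding bases. They parted after the base at 119258960. ENSMUST00000084309 removed an intron of 756 bases there and ended in exon 5, with 49 coding bases of its own, stop codon included, and a coding length of 675 bases (224 residues). ENSMUST00000094823 read on into what is intron in the other transcript and reached a stop codon after 10 bases, for a coding length of 636 bases (211 residues). Its last exon was 3631 bases long, with 3468 bases after the stop codon against 90 in the other transcript. The ends are printed to show this. They run in coding direction on the plus strand of GRCm38, at chr4:119258931-119259765 with the intron removed and at chr4:119258931-119258970, with 30 shared bases in lower case and the bases of each transcript's own in capitals, the last 3 being the stop codon.
Cldn19 end of the coding sequence, ENSMUST00000084309: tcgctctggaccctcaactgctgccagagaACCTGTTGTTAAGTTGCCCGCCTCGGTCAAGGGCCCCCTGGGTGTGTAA
Cldn19 end of the coding sequence, ENSMUST00000094823: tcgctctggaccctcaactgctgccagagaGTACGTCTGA

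The own part of the second end opens with GT, the first letters of the intron that the other transcript removes, and that intron ended with AG. Because of the long last exon, the longest coding transcript of Cldn19 held 924 of its 4263 exon bases (21.7%). Among the 10537 gene names with at least 2 coding transcripts the median was 80.0%, and 1.36% had a lower share than Cldn19. The other members with at least 2 coding transcripts stood between 82.2% for Slc12a1 and 100% for Cldn16. Over the members, 4742 exon bases lay outside the longest coding transcripts, and 3339 of these were in Cldn19.

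Casr (ENSMUSG00000051980) codes for the calcium-sensing receptor. On chromosome 16, minus strand, it runs from 36493696 to 36562141 and spans 68446 bases, of which 4718 were exonic. Its 4 transcripts had 3 first-exon groups, all noncoding. ENSMUST00000063597 and ENSMUST00000114847 shared a first exon of 281 bases from 36561854 to 36562134. ENSMUST00000172826 used an exon of 177 bases from 36561430 to 36561606. The noncoding transcript ENSMUST00000174750 began 7 bases upstream of the former pair with an exon of 66 bases and removed an intron of 79 bases, which opened with GT, closed with AG and lay inside the exon of 281 bases. The starts lay within 535 bases, and first introns of 43825 and 43401 bases separated the coding transcripts' first exons from the exon with the start codon.

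The coding sequence of Casr was 3240 bases (1079 residues) in ENSMUST00000063597 and ENSMUST00000172826 and 3009 bases (1002 residues) in ENSMUST00000114847. The latter skipped an exon of 231 bases, the fifth of 7. At this exon the reading frame was kept in full: it began and ended between codons, held codons 460 to 536 (77 codons) without a stop codon, and made up 7.13% of the longer coding sequence. Introns of 9186 and 2463 bases lay before and after it in the direction of transcription. ENSMUST00000172826 ended with the stop codon and had 0 bases after it, against 771 in the other coding transcripts.

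The skipped exon of Casr is printed because it is the whole difference between the coding sequences. It is at chr16:36500177-36500407 on the minus strand of GRCm38, in coding direction, with its first and last codon in capitals. The junction that joins its neighbours is printed beneath it, with the 15 last bases of the upstream exon in lower case and the 15 first bases of the downstream exon in capitals, from chr16:36497699-36509608 with the intervening bases removed.
Casr skipped exon: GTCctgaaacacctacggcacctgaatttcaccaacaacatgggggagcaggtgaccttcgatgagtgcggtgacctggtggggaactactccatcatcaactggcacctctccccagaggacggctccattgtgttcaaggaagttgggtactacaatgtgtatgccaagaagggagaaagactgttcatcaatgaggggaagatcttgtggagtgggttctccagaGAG
Casr junction without the exon: gttgaggcctggcagGTGCCCTTCTCCAAC

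A skipped coding exon, defined as one whose neighbours another transcript joins directly, was present in 37% of the 10537 gene names with at least 2 coding transcripts and in 1 of 5 such members. Of the 6627 skipped coding exons in the file, 57.9% had a length divisible by 3. The exon of Casr was the 1 such exon of the members, and it was divisible by 3. If any coding exon that lies inside an intron of another transcript was called skipped, the members had 4, since the exons of the Slc12a1 set were then included, and 4 of 4 were divisible by 3. In the whole file the looser definition gave 12592 exons, of which 49.8% were divisible by 3.

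Of all distinct internal coding exons in the file, 40.9% had a length divisible by 3, and of the members 19 of 38 did. The 26 of Slc12a1 contributed 12 of these. Within its longest coding transcript, the 24 internal coding exons were between 68 and 156 bases long, 10 of them were divisible by 3, and 4 of these 10 also began between codons. Removal of any internal exon whose length is not divisible by 3 would shift the frame. Casr had fewer and longer exons, with 885 bases in its longest internal exon and 1508 coding bases in its last. Kcnj1 had 1140 of the 1179 coding bases of its longer form in its last exon.

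**Figure D3:**
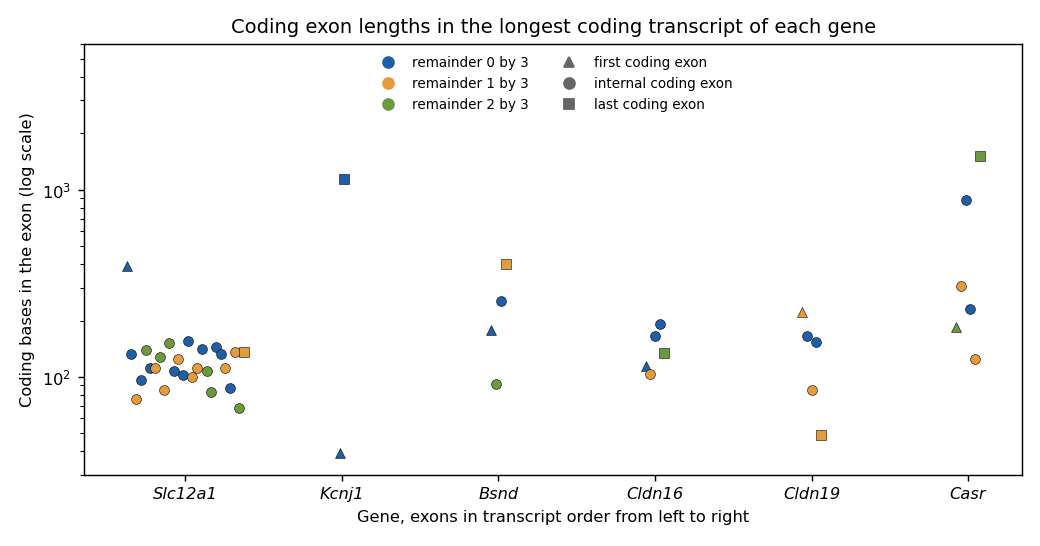
Coding bases in each exon of the longest coding transcript of the 6 genes (vertical axis, log scale), with exons in transcript order from left to right within a gene. Colour gives the remainder after division by 3, and the marker shows the place of the exon. The internal exons of Slc12a1 lie between 68 and 156 bases, while single last exons of 1140 and 1508 coding bases stand out in Kcnj1 and Casr.

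Set beside all coding gene names, Slc12a1 and Casr had long coding sequences, with 91.6% and 91.5% of names below them, and the median over all names was 1113 bases. Kcnj1 was near the middle (52.6% below), and Cldn16 (26.2%) and Cldn19 (23.7%) were shorter. The median of the 6 members was 1051.5 bases. The 26 coding exons of Slc12a1 exceeded those of 95.0% of names, while the other members had between 2 and 6, against a median of 6 over all names.

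Reads were counted by gene name, so the transcripts of a gene were not told apart in the counts. How much of each transcript could tell it from the others was measured as the share of its 100-base windows that occurred in no other transcript of the gene. The study sequenced paired ends, and a pair of reads covers more of a transcript than a single window. The shares therefore do not measure what the libraries could tell apart. For Slc12a1, windows that touched the exchanged exon made 195 of the 4546 windows of ENSMUST00000028630 (4.29%), and 187 of these 195 were in no other coding transcript. For the first and the third exon of the set, 185 of 195 windows were. When the noncoding transcript was counted too, ENSMUST00000028630 had 93 windows (2.05%) of its own, since that transcript shares the second exon and the junction ahead of it.

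Kcnj1 transcripts had 195 of 2969 and 197 of 2971 windows of their own, from their first exons. Of the 195, which belong to ENSMUST00000047334, 75 held bases that were not read, so they counted as its own without a comparison of letters. In Casr, ENSMUST00000063597 had 0 of 4435, as each of its parts is also in another transcript, while ENSMUST00000114847 had 95 windows, all across the junction printed above. In Cldn19 the share was 84.5% for ENSMUST00000094823 and 23.5% for ENSMUST00000084309. No 100-base window of the 6 genes, 0 of 2657 for Bsnd and 0 of 5938 for Slc12a1 for example, was found on either strand in a GENCODE release M21 transcript of another gene. The 75 windows of the Kcnj1 transcript ENSMUST00000047334 that hold bases not read from that release could not be searched. Cldn19 shares 90 bases with Gm12927 in the deposited annotation. That stretch is shorter than a window, so the search could not find it.

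**Figure D4:**
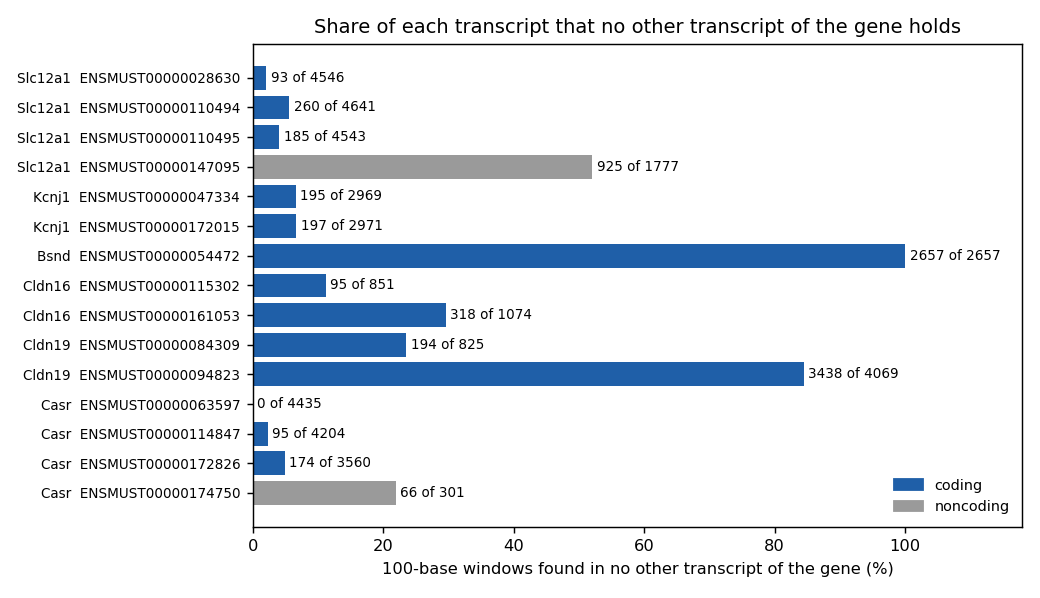
Share of the 100-base windows of each transcript that no other transcript of the same gene holds (horizontal axis, percent), with the number of such windows and of all windows beside each bar. Blue bars are coding and grey bars noncoding transcripts. Coding transcripts range from 0 of 4435 windows in Casr to 3438 of 4069 in Cldn19, and the single transcript of Bsnd has 2657 of 2657.

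Of all coding gene names, 20.4% shared at least 1 exon base with another gene name when strand was ignored. Of the members 1 of 6 did: Cldn19 shared 90 bases (2.11% of its exon bases) of its second exon, from 119256886 to 119256975, with Gm12927, a noncoding gene on the opposite strand. Counted by same strand only, that number was 0. If strand was ignored in the counting, reads on these bases were left unassigned in union mode. The strand setting is not given in the sources used here, and the number of such reads was not measured. A further pair of noncoding genes lay within the span of a member with 0 exon bases in common, Gm14002 on the opposite strand in Slc12a1 and Gm25902 on the same strand in Casr.

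The nearest genes stood at distances between 4665 bases for Slc12a1, downstream of Ctxn2 on the same strand, and 38303 bases for Casr, upstream of Stfa3. Over all coding genes the median distance to the nearest gene that does not overlap was 6838 bases. Slc12a1, Cldn19 (6438 bases from Lepre1) and Bsnd (6532 bases from Tmem61) were nearer than that, while Cldn16 (21027 bases from Tmem207), Kcnj1 (23015 bases from Fli1) and Casr were farther. Some neighbours were relatives of the member: Kcnj5, another inwardly rectifying potassium channel gene, lay 28180 bases upstream of Kcnj1, and Cldn1, another claudin gene, 91293 bases upstream of Cldn16. Both stood head to head with the member. Tmem61 had no coding rows in the file.

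**Figure D5:**
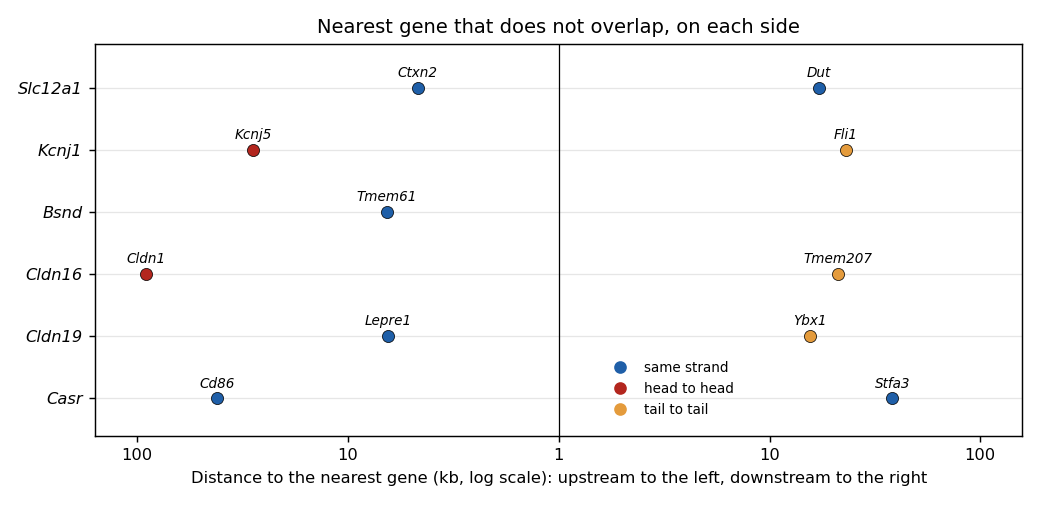
Distance from each of the 6 genes to the nearest gene that does not overlap it, where reported here (horizontal axis, kb on a log scale running outward from 1 kb, upstream to the left and downstream to the right). Colour gives the relative orientation. Cldn1, at 91293 bases from Cldn16, is the farthest of the neighbours shown, and Ctxn2, at 4665 bases from Slc12a1, is the nearest.

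Members shared chromosomes in a pair of cases. Bsnd and Cldn19 were 12.8 Mb apart on chromosome 4, with 333 gene names between them, and Cldn16 and Casr were 10.0 Mb apart on chromosome 16, with 160 between them.

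A list of 38 other genes of kidney tubule transport and its control was set beside the members, and 37 of them were found in the file. Most are known from the TAL, but Slc12a3, the cotransporter gene of the distal convoluted tubule, and Foxi1, a transcription factor gene of intercalated cells, are known from other segments. Clcnk1 was not found under that name. Of the 37, 20 had at least 2 coding transcripts, beside 10537 of 22923 coding gene names in the file. At least 2 first-exon groups were present in 19 of the 37, beside 43.6% of coding gene names. Mutually exclusive coding exons were present in 2 of the 20, beside 2.53% of such names over the whole file. These were Kcnma1, a calcium-activated potassium channel gene, with 7 exons, and Wnk1, a kinase gene of salt transport control, with 2 exons of unequal length. By the definition used, the 7 exons of Kcnma1 need not all exclude each other. Skipped coding exons were present in 9 of the 20, beside 37% of names over the whole file. They made 30 exons, of which 24 were divisible by 3, beside 57.9% of skipped exons over the whole file. Most of these exons came from the same pair of genes, with 7 of 8 divisible by 3 in Kcnma1 and 10 of 11 in Wnk1.

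GENCODE release M21 held all 15 transcript IDs of the members, 13 of them with the same exons and coding positions, and 65 of the 67 distinct exons. The 2 that differed belonged to Kcnj1: the first exon of ENSMUST00000047334 began at 32372493 there, and the shared last exon ended at 32399186 or 32399197. That release had 16 transcripts for the members, and the added one, ENSMUST00000213393 of Kcnj1, started between the other two with a first exon from 32385209 to 32385345 and coded for the same 372 residues as ENSMUST00000047334.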

How the data were processed

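RNA of 3 wild type and 3 C150S libraries was sequenced. According to the methods and the submitters' processing notes, the authors used CASAVA 1.8, STAR 2.3.0, HTSeq and limma, and reads were counted by gene name on exon rows. The deposited file analysed here is the annotation used for that counting. It gives start and end positions on mm10, with no counts. Positions were used as given, and no test between groups was made. Transcripts were coding where they had coding rows, and coding lengths include the stop codon. First exons were grouped by their splice donor. Sequences were read base by base from GENCODE release M21 transcripts. The definitions were tested on simulated annotations, with 400 of 400 recovered for each. Each simulated gene held a single set of exclusive exons that did not overlap and were never joined. The recovery therefore does not cover sets with overlapping or joined exons. The analysis used Python 3.11.15, numpy 2.4.6, Biopython 1.88 and matplotlib 3.10.9.

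The genes and lists were chosen with earlier results of these data known, and the genes named are the members, their neighbours and the list of other tubule transport genes. Counts of 100-base windows, sequence identities and the GENCODE alternatives for first exons, exchanged or skipped exons and coding length were added after the file was seen. A value was called stable under an alternative when it stayed within 1.5 times. Some neighbouring genes are not reported here.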

Additional observations from a re-analysis of the deposited data

How the results depend on the processing

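Under 11 alternatives, 99 of 107 recomputed values of single members stayed within 1.5 times and 8 did not, 4 of them higher and 4 lower. Many of the 99 were 0 under both settings, and Bsnd, with a single transcript, had little room to change. The count of unchanged values is thus a weak measure of stability. With the looser definition of a skipped coding exon, the members' number rose from 1 to 4 and the number divisible by 3 from 1 to 4, since exons of the Slc12a1 set then count. With the union of all coding transcripts in place of the longest, exon bases outside them fell from 4742 to 838. With strand used, shared exon bases went from 90 to 0. Distinct start positions in place of splice donors gave 13 in place of 10. No paired analysis was possible because no result comes from a test between samples. Annotated transcripts are models, and the file does not say which of them mTAL cells make. The values have no replicates and no sampling error. No genome sequence was used, so introns were read only where a transcript covers them.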
